A study of Homo sapiens with 6 samples.

Results

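The 9 genes described here encode the MYC, MAX and MXD network: MYC and MYCN, their shared partner MAX, and MXD1, MXI1, MXD3, MXD4, MNT and MGA, which also pair with MAX. They were chosen by name, for their place around MAX, from a table of 24960 genes, and all 9 are listed in it. Earlier results of these data were known when they were chosen. RNA was sequenced from K562 cells, a chronic myeloid leukemia (CML) line that carries the BCR::ABL fusion, in 3 libraries of the control group and 3 libraries of the hyperoside (2 mM) group. Hyperoside is a flavonol glycoside of plants. The labels give no agent for the control group, and neither they nor the study's text give the hours between the addition of hyperoside and RNA extraction. Both groups are the same line, and although the study's methods speak of repeated experiments in general, neither they nor the labels say that the RNA libraries of a group came from separate cultures, so p-values measure the spread between these libraries only, which may be technical.

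MYC is a basic helix-loop-helix leucine zipper transcription factor that binds E-box DNA only as a dimer with MAX, and it drives ribosome production, nucleotide synthesis and cell cycle entry in hematopoietic cells. MAX has no activation domain of its own. The MXD proteins and MNT compete for MAX, recruit SIN3 and histone deacetylases, and repress E-box genes, with MXD proteins classically linked to the end of proliferation and to differentiation. MGA also pairs with MAX and acts within a variant Polycomb complex, PRC1.6.

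Each library held between 35613283 and 36754725 counts on genes. Of the 12 erythroid and megakaryocytic markers looked at, none had fewer than 580 counts in any library, and their summed level in FPKM (fragments scaled by gene length and library total, as the authors computed it) was 7813 to 9663 in the control group and 5824 to 7025 in the hyperoside group. That sum is mostly globin mRNA, and its members did not move together. Per length, 5 of the 12 were above all control libraries in every hyperoside library, 4 were below and 3 overlapped. Groups that did not overlap were common, at 54.4% of all tested genes, there on counts scaled to a common library size. The globin genes HBE1, HBG1 and HBG2 were among the lower markers. HBE1 had 4436 to 5437 FPKM in the control group and 3339 to 4042 in the hyperoside group. The higher ones were KLF1 (19.1 to 26.8 FPKM and 41.3 to 48.7), NFE2 (42.97 to 56.2 and 87.5 to 101.4), LMO2 (4.92 to 6.34 and 10.6 to 11.8), TFRC (71.5 to 89.95 and 134 to 175) and GATA2 (32.9 to 35.7 and 43.03 to 46.9). Among markers of other lineages the T cell gene CD2 and the B cell gene MS4A1 had at most 2 and 1 counts in a library, whereas the T cell gene CD3D (34.5 to 42.2 FPKM in the control group, 47.5 to 52.95 in the hyperoside group) and the epithelial gene EPCAM (48.7 to 50.9 and 49.2 to 53.0 FPKM) were well above 0. Among other listed markers, CD3E had at most 27 counts, CD79A at most 11, COL1A1 47 to 111 and COL3A1 26 to 106. The part of these genes in the results below was not tested. In bulk RNA, fewer cells that carry a transcript and less transcript per cell cannot be told apart.

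MXD3 and MXD4 fell in the hyperoside group, MGA rose, MXI1 rose with an adjusted p just under the threshold, and MYC, MAX, MXD1 and MNT were not called. Of the 9 genes, 8 passed the filter on low counts and were tested. With a call at an adjusted p under 0.05 from edgeR's quasi-likelihood test, 2 of the 8 were higher, against 22.1% of all 15095 tested genes, and 2 were lower, against 23.2%. In either direction 4 of 8 were called, against 45.3% of all tested genes, so the share of called genes was near the background. With a fold change above 2 required as well, 1 of 8 was called, MXD3, against 10.2% of all tested genes in either direction and 3.76% in the lower direction. The median log2 fold change was -0.04 over the 8 genes and 0.0032 over all tested genes. The CPM (counts scaled to a common library size) of the groups did not overlap in 5 of the 8 genes, against 54.4% of all tested genes.

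**Figure D1:**
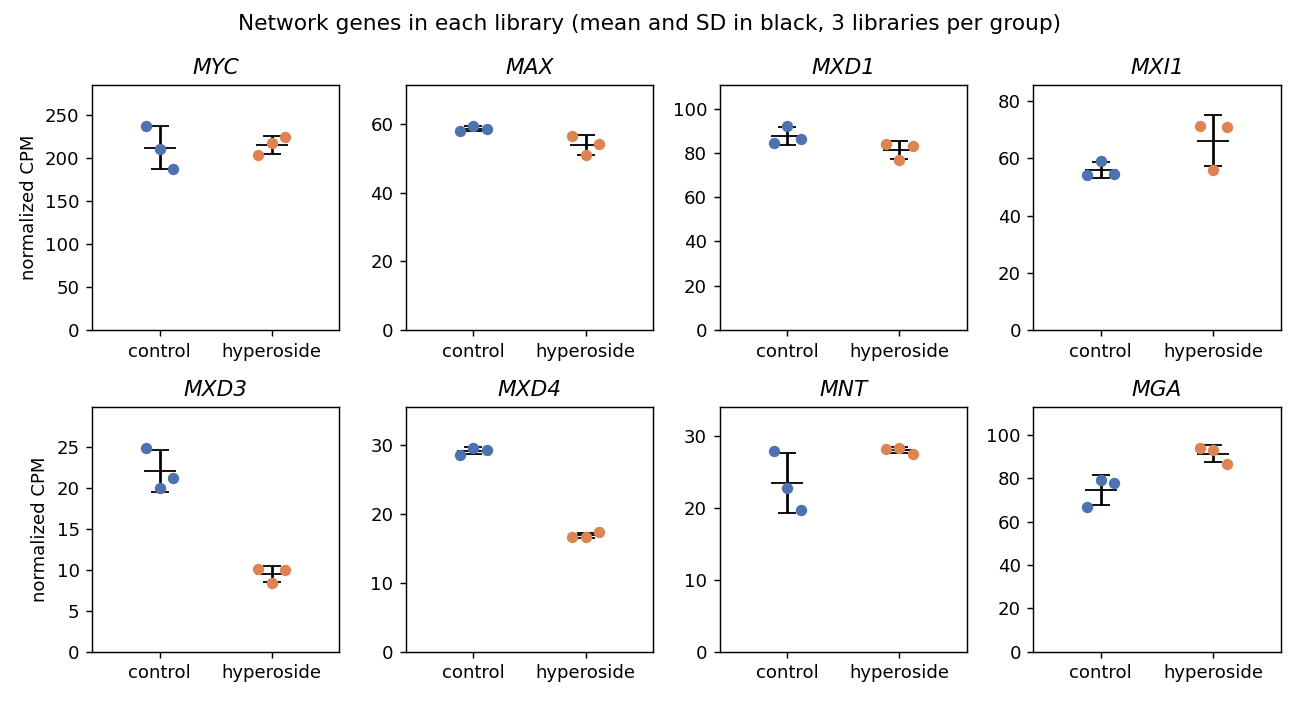
Normalized CPM (vertical axes, each from 0) of the 8 tested network genes in the 3 control (blue) and 3 hyperoside (orange) libraries, with the group mean and SD in black. MXD3 fell to 43.0% and MXD4 to 57.9% of the control mean, whereas the MYC values of the groups overlap.

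MYC had 237, 210.3 and 187 CPM in control replicates 1, 2 and 3, and 202.9, 217.4 and 223.5 CPM in hyperoside replicates 1, 2 and 3. The control libraries alone spanned a wider range than the hyperoside libraries, which lay inside it. Control libraries averaged 211 ± 25.01 CPM and hyperoside libraries 215 ± 10.6 CPM (SD, n = 3 each). The log2 fold change was 0.02 (standard error 0.08, edgeR adjusted p = 0.851). The 95% interval of this change ran from a fold of 0.900 to 1.15, so at this spread a rise or fall of MYC mRNA by more than about these factors was outside the interval. Without control replicate 3 the log2 fold change was -0.0625, also not called. Of all tested genes, 96.6% had a larger absolute change than MYC.

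MYCN, the neural member of the family, had 0 counts in all 6 libraries. A count of 0 allows up to 3 counts, which is 0.0817 to 0.0853 CPM per library, and this limit covers counting error only. MYCL, the remaining MYC-family gene and not one of the 9, was called lower. It had 49.0, 44.4 and 49.8 CPM in the control replicates and 21.9, 17.9 and 22.1 CPM in the hyperoside replicates, so the groups did not overlap. MYCL fell by 1.21 on the log2 scale (standard error 0.10, edgeR adjusted p = 4.68e-08), to 43.2% of the control mean. Per length, MYCL had 9.68 ± 0.627 FPKM in the control group and 4.32 ± 0.498 FPKM in the hyperoside group (SD, n = 3 each), against 45.9 ± 4.33 and 48.3 ± 2.02 FPKM for MYC.

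MAX, the common partner, had 58.2, 59.6 and 58.6 CPM in control replicates 1, 2 and 3. The hyperoside libraries had 56.6, 51.1 and 54.1 CPM, all below the lowest control library. The log2 fold change of -0.12 (standard error 0.08, edgeR adjusted p = 0.223) was not called, and its 95% interval ran from a fold of 0.816 to 1.03.

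Among the MXD repressors, MXD3 changed most. MXD3, a member linked to S phase and proliferating cells rather than to differentiation, had 24.9, 19.97 and 21.2 CPM in control replicates 1, 2 and 3, and 10.1, 8.33 and 9.97 CPM in the hyperoside replicates. Each hyperoside library was thus below every control library. MXD3 fell by 1.22 on the log2 scale (standard error 0.12, edgeR adjusted p = 4.66e-07), a fold of 0.430 with a 95% interval from 0.359 to 0.516. Of all tested genes, 8.61% had a larger absolute change. The exons of MXD3 share bases with RAB24 on the same strand and with PRELID1 on the opposite strand in GENCODE 29, and whether the counting used strand is not given in the sources used here, so reads of these genes cannot be fully told apart. RAB24 and PRELID1 were also lower, with log2 fold changes of -0.48 (standard error 0.09, edgeR adjusted p = 2.64e-04) and -0.51 (standard error 0.09, edgeR adjusted p = 2.54e-04).

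MXD4, a repressor widely found in resting and differentiated cells, had 28.5, 29.6 and 29.2 CPM in the control replicates and 16.7, 16.6 and 17.3 CPM in the hyperoside replicates. The replicates of each group lay close together and far from the other group. MXD4 fell by 0.79 on the log2 scale (standard error 0.10, edgeR adjusted p = 3.33e-06), a fold of 0.579 with a 95% interval from 0.504 to 0.666.

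MXI1, also known as MXD2, moved the other way. It had 54.0, 59.2 and 54.6 CPM in the control replicates and 71.4, 55.8 and 71.1 CPM in the hyperoside replicates. Hyperoside replicate 2 lay within the control range, and the other two hyperoside libraries lay above it. The log2 fold change was 0.24 (standard error 0.10), and its edgeR adjusted p of 0.0497 was just inside the threshold. The call ended under 9 of 15 alternative settings, among them leaving out control replicate 2 or 3 or hyperoside replicate 1 or 3, with adjusted p-values from 0.00701 to 0.225 over the 15. MXD1, the founding repressor, which rises during myeloid differentiation, had 84.4, 92.2 and 86.1 CPM in the control replicates and 84.2, 76.9 and 82.9 CPM in the hyperoside replicates. The ranges were separated by only the gap between 84.4 and 84.2 CPM, and the log2 fold change of -0.11 (standard error 0.08, edgeR adjusted p = 0.273) was not called. MXD1 shares exon bases with SNRNP27 on the same strand, whose log2 fold change was -0.19 (standard error 0.09, edgeR adjusted p = 0.0829).

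MGA had 66.6, 78.9 and 77.8 CPM in the control replicates and 94.1, 93.0 and 86.7 CPM in the hyperoside replicates. All hyperoside libraries were above all control libraries. MGA rose by 0.29 on the log2 scale (standard error 0.08, edgeR adjusted p = 0.00763), a fold of 1.23 with a 95% interval from 1.09 to 1.38. MNT, the repressor that is present in both resting and dividing cells, had 27.96, 22.8 and 19.7 CPM in the control replicates and 28.2, 28.4 and 27.5 CPM in the hyperoside replicates. Control replicate 1 was as high as the hyperoside libraries, while the other two control libraries were below them. The log2 fold change of MNT was 0.26 (standard error 0.12, edgeR adjusted p = 0.0789) and was not called, but without control replicate 1 it was 0.40 with an edgeR adjusted p of 0.0015.

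**Figure D2:**
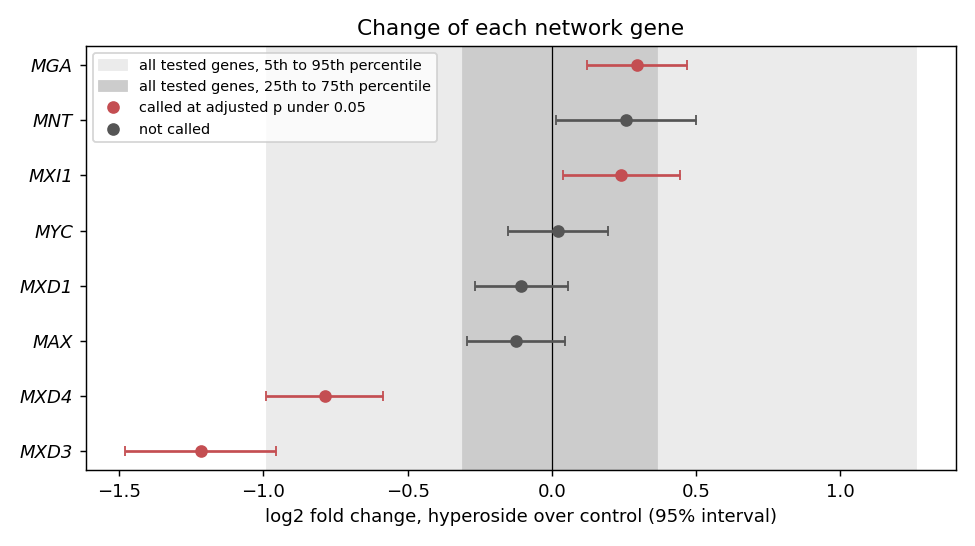
Log2 fold change of hyperoside over control (horizontal axis) with its 95% interval for the 8 tested network genes, called genes in red, over the middle ranges of all tested genes in gray. MXD3 at -1.22 lies outside the 5th to 95th percentile of all tested genes (-0.99 to 1.26), MXD4 at -0.79 lies inside it, and the other 6 lie within the 25th to 75th percentile (-0.31 to 0.36).

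Promoter sequence is shown for the genes that fell clearly, MXD3 and MXD4, for MGA, which rose, and for MNT, because MXD4 and MNT were, of the genes searched, those whose promoter windows held an E-box. The windows are those of RefSeq on GRCh38.p14, from 250 bases before to 50 bases after a transcript start, read 5′ to 3′ on the strand of the gene, and 8 of the 9 genes, all but MYC, had one or more, 13 windows in all. The motif searched was CACGTG, the canonical E-box, which reads the same on both strands. It was found in 2 of the 13 windows, and in 7.26% of all 35116 windows and 9.18% of the 16652 windows of tested genes. In GENCODE 29 the genes span chr5:177301461-177312757 (MXD3, minus strand), chr4:2247432-2262294 (MXD4, minus), chr17:2384060-2401118 (MNT, minus) and chr15:41621224-41773081 (MGA, plus). Capitals mark the E-box. In MXD4, on the minus strand at chr4:2262060-2262359, it starts 238 bases upstream of the start site, and in MNT, on the minus strand at chr17:2401011-2401310, it starts 193 bases upstream. The MXD3 window is at chr5:177312703-177313002 on the minus strand, and 1 of the 9 GENCODE 29 transcripts of MXD3 starts within it. Of the 3 windows of MGA the printed one, at chr15:41660155-41660454 on the plus strand, is that in which most GENCODE 29 transcripts start, 3 of 12, and the other windows held no E-box either. These letters describe the windows only, and binding was not measured.
MXD4: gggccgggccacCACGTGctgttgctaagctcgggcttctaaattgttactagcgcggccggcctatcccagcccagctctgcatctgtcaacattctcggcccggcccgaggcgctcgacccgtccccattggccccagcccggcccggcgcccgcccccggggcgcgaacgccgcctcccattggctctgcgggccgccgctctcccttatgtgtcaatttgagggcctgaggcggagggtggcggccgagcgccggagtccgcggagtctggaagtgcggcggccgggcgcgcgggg
MNT: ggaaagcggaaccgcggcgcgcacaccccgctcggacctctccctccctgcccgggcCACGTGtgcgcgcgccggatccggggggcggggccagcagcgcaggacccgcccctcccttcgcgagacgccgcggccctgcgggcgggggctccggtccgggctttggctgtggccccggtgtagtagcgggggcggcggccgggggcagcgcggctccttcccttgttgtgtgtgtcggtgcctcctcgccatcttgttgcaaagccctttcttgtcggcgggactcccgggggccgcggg
MXD3: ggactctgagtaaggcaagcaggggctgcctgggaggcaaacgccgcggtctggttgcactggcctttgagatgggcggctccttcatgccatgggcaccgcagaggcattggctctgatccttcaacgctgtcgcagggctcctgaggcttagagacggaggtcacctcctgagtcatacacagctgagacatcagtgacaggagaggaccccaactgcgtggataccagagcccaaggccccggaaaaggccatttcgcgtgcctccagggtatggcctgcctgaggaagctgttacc
MGA: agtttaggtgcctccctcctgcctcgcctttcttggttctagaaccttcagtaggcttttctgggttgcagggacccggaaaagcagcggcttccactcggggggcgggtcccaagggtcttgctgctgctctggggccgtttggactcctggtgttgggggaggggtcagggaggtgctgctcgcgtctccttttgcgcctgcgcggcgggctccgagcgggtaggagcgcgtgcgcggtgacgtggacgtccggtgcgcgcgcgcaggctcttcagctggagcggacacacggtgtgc

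The G and C share of the printed windows was 72.3% for MXD4, 76.0% for MNT, 60.7% for MXD3 and 66.3% for MGA.

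Levels were compared between genes only per length, as FPKM. In the control group the order was MYC (45.9 ± 4.33), MAX (18.02 ± 0.572), MXD1 (15.5 ± 0.937), MXI1 (14.3 ± 0.893), MXD3 (7.75 ± 0.739), MXD4 (7.39 ± 0.293), MGA (5.80 ± 0.654) and MNT (2.51 ± 0.384 FPKM, SD, n = 3). The ranges of MXD1 and MXI1 overlapped, as did those of MXD3 and MXD4, and the other neighbors in this order did not overlap. In the hyperoside group MXI1 (17.5 ± 2.36), MAX (17.1 ± 0.956) and MXD1 (14.9 ± 0.745) followed MYC (48.3 ± 2.02), and then came MGA (7.35 ± 0.375), MXD4 (4.43 ± 0.0765), MXD3 (3.46 ± 0.363) and MNT (3.11 ± 0.0714 FPKM, SD, n = 3). Here MXI1 and MAX overlapped, as did MXD3 and MNT. MGA stood below MXD3 and MXD4 in the control group and above them in the hyperoside group.

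**Figure D3:**
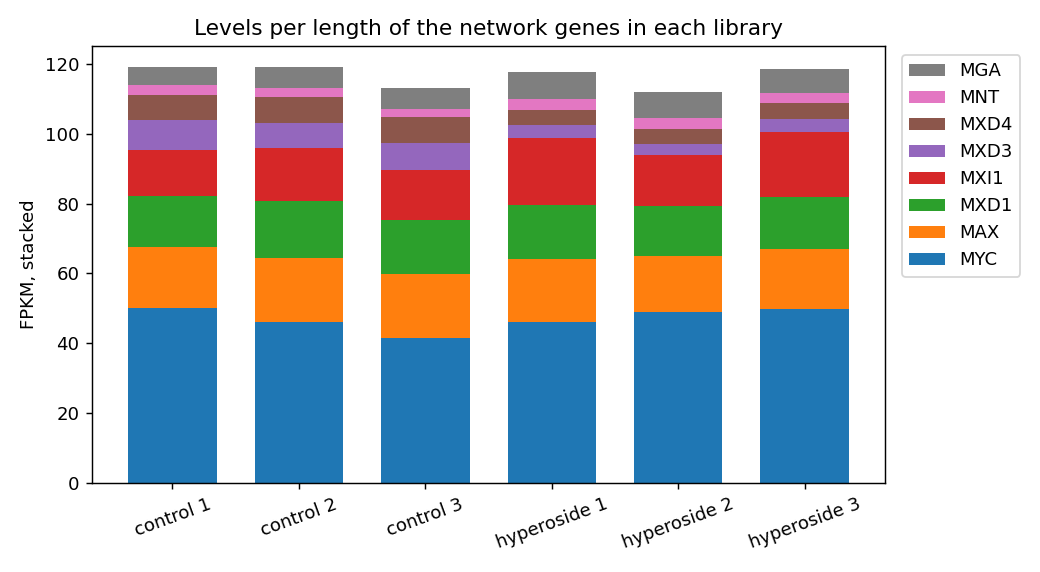
FPKM of the 8 network genes with counts, stacked for each library (horizontal axis). The stacks reach 113 to 119 FPKM in the control and 112 to 119 FPKM in the hyperoside libraries, MYC is the tallest part in each, and the MXD3 and MXD4 parts are thinner in the 3 hyperoside libraries.

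The summed level of the network stayed within the same range, 113 to 119 FPKM in the control libraries and 112 to 119 FPKM in the hyperoside libraries. The ratio of MYC to MAX in FPKM was 2.89, 2.50 and 2.26 in control replicates 1, 2 and 3, against 2.54, 3.02 and 2.93 under hyperoside, with overlapping groups. The 6 repressor and MGA genes together had 51.5, 54.9 and 53.3 FPKM in the control replicates and 53.5, 46.9 and 51.8 FPKM in the hyperoside replicates, so their sum overlapped as well. What shifted was the makeup of that sum. MXD3 and MXD4 made up 30.3%, 26.6% and 28.5% of it in control replicates 1, 2 and 3, against 15.2%, 15.8% and 15.7% under hyperoside. MXI1 made up 26.1% to 27.7% in the control group and 31.5% to 36.03% in the hyperoside group, and MGA made up 9.79% to 11.6% and 13.4% to 15.97%. The share of MNT was 4.03% to 5.65% and 5.84% to 6.71%. Such a share also rises where other parts of the sum fall. The MXI1 levels themselves overlapped, at 13.4 to 15.2 FPKM in the control group and 14.8 to 19.03 FPKM in the hyperoside group. The share of MXD1 overlapped, at 28.2% to 29.9% and 29.1% to 30.0%. These shares describe mRNA per length and were not tested.

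The lists of partners, regulators and targets read from the same fit are described by counts, and these counts and medians stand beside 22.1% called higher, 23.2% called lower and a median of 0.0032 over all tested genes. The lists too were chosen with earlier results of these data known, and no list was tested as a set. Of 6 other genes of the MYC and MLX branches or with E-box binding, 1 was called higher (16.7%, against 22.1% of all tested genes) and 3 lower (50%, against 23.2%), and the median log2 fold change was -0.21. Besides MYCL, MLXIPL, which encodes the glucose-sensing factor ChREBP, fell by 0.997 (standard error 0.190, edgeR adjusted p = 3.47e-04), USF1 fell by 0.44 and USF2 rose by 0.33 on the log2 scale. MLX and MLXIP, the MAX-like protein and its MondoA partner, had log2 fold changes of 0.07 and 0.01 and were not called.

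Of the 18 corepressor genes, those of SIN3 and histone deacetylases among them, through which the MXD proteins and MNT repress, 3 were called higher (16.7%) and 4 lower (22.2%), both at or below the background of 22.1% and 23.2%, with a median of 0.06 and changes between -0.36 and 0.45. The called changes were small. BRMS1 rose by 0.45 and the deacetylase gene HDAC1 by 0.17, while RBBP7 fell by 0.36, ARID4B by 0.28 and SIN3B by 0.22 on the log2 scale. The ARID4B groups overlapped, with 47.4 to 69.9 CPM in the control group and 47.6 to 49.6 in the hyperoside group (edgeR adjusted p = 0.0438). HDAC2, the close relative of HDAC1 and named after its value was seen, fell by 0.18, and both deacetylase genes were near the threshold (edgeR adjusted p = 0.0488 for HDAC2 and 0.0489 for HDAC1). The count of lower corepressor genes was 1 under upper-quartile scaling, and 1 or 2 without any single library other than control replicate 1. Over all genes tested, 3052 were lower under upper-quartile scaling and 2858 to 3277 without any of those libraries, against 3508 in the main fit. Of the 12 genes of the MGA complex PRC1.6, 4 were called higher (33.3%, against 22.1% of all tested genes) and 1 lower (8.33%, against 23.2%), with a median of 0.20. RYBP, a subunit that tunes the ubiquitin ligase, rose by 0.49, the ligase gene RING1 by 0.48 and the E2F partner TFDP2 by 0.34, the same direction as MGA, and the chromobox gene CBX1 fell by 0.40 on the log2 scale. With upper-quartile scaling 7 of the 12 were called higher, when 3666 of all tested genes were higher and 3052 lower, against 3333 and 3508 with TMM.

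Of 18 tested genes of MYC cofactors, 7 were called higher (38.9%, against 22.1% of all tested genes) and 3 lower (16.7%, against 23.2%), with a median of 0.15. The acetyltransferase genes CREBBP and EP300 rose by 0.96 (standard error 0.10, edgeR adjusted p = 6.28e-07) and 0.75 (standard error 0.08, edgeR adjusted p = 5.86e-07), and SMARCB1, a chromatin remodeling subunit that contacts MYC, rose by 0.72 on the log2 scale. ACTL6A fell by 0.38, RUVBL2 by 0.40 and the acetyltransferase gene KAT2A by 0.26. Of 20 genes that act on MYC protein stability, 1 was called higher (5%, against 22.1% of all tested genes) and 5 lower (25%, near the 23.2% of all tested genes), with a median of -0.09. PIM1 and PIM2, kinases of the BCR::ABL and STAT5 output that stabilize MYC, fell from 1466 ± 113 to 1041 ± 83.6 CPM and from 152.1 ± 14.9 to 99.4 ± 11.98 CPM (SD, n = 3 each), with log2 fold changes of -0.49 and -0.61. SKP2, a ubiquitin ligase subunit for MYC, fell by 0.40, and the ligase gene FBXO28 rose by 0.27 on the log2 scale, a call that ended without hyperoside replicate 1 or 2. MYC protein was not measured in these data.

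**Figure D4:**
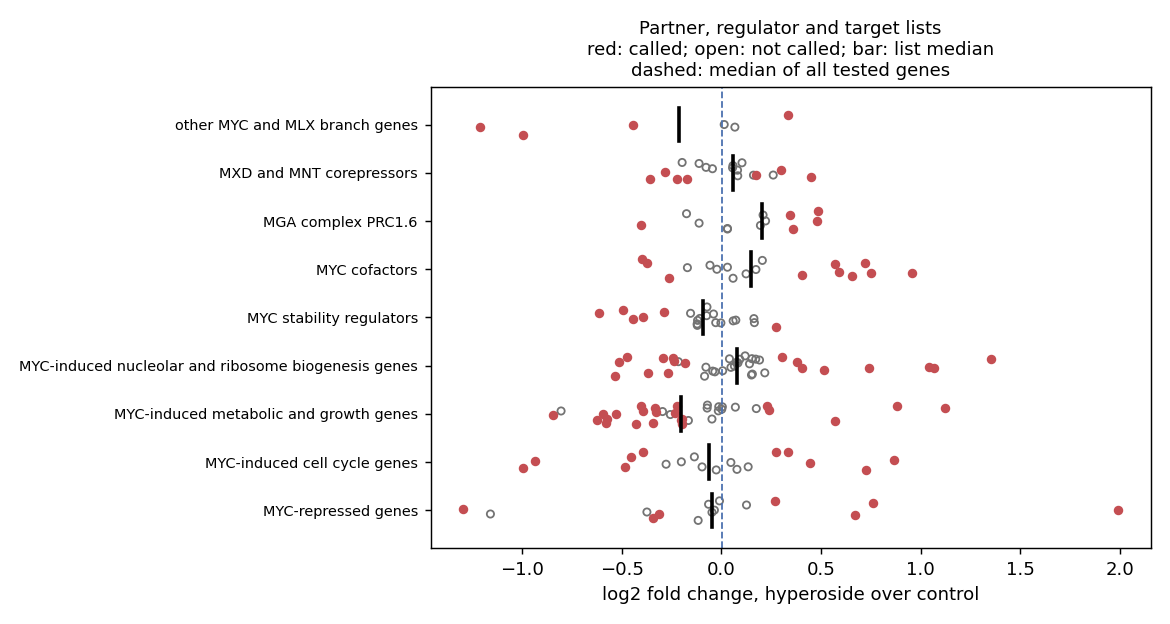
Log2 fold change of hyperoside over control (horizontal axis) of each tested gene in 9 lists of partners, regulators and targets (rows), filled red where called, with the list median as a black bar. The medians lie between -0.21 and 0.20, and 17 of 35 genes in the metabolic and growth list were called lower, against 23.2% of all tested genes.

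Genes that MYC is known to induce did not move as a block. Of 37 nucleolar and ribosome biogenesis genes, 8 were called higher (21.6%) and 9 lower (24.3%), near the background in both directions, with a median of 0.08. UBTF, which organizes ribosomal DNA for RNA polymerase I, rose from 69.9 ± 4.65 to 144 ± 7.77 CPM (SD, n = 3 each), and the processome gene UTP20 and the polymerase I subunit POLR1A rose by 1.07 and 0.74 on the log2 scale. NOLC1, DKC1 and GNL3, all nucleolar, fell by 0.54, 0.52 and 0.47. Under the FPKM-based fits this list had 13 genes higher and 4 lower, and over all genes 55.9% to 56.1% of the calls were then higher, against 48.7% in the count fit. It had 13 higher without control replicate 1, and 4 lower without hyperoside replicate 1 or 3. Over all genes tested, 3549 were higher without control replicate 1, against 3333 with all libraries. Lower genes numbered 2858 and 2891 without hyperoside replicates 1 and 3, against 3508.

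Of 35 tested metabolic and growth genes, 5 were called higher (14.3%, against 22.1% of all tested genes) and 17 lower (48.6%, against 23.2%), with a median of -0.20. Without hyperoside replicate 3, 11 were lower, when 2891 of all genes tested were lower, against 3508 with all libraries. PPAT, the first committed enzyme of purine synthesis, fell from 109 ± 5.55 to 60.7 ± 5.04 CPM (SD, n = 3 each), or by 0.85 on the log2 scale (standard error 0.08, edgeR adjusted p = 2.43e-07). The lactate transporter SLC16A1 fell by 0.63 and the mitochondrial serine enzyme SHMT2 by 0.58 on the log2 scale. The purine genes PRPS1, PRPS2, GART and PAICS, named after their values were seen, also fell, by 0.60, 0.53, 0.39 and 0.34. Of others in the list, likewise named afterwards, IMPDH1 fell by 0.33 and ATIC by 0.22. IMPDH2 and the nucleotide gene CTPS1 had log2 fold changes of -0.05 and -0.01 and were not called. SLC2A1, the glucose transporter GLUT1, rose by 1.12, the transferrin receptor TFRC by 0.88 and the hexokinase HK2 by 0.57.

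Of 18 MYC-induced cell cycle genes, 5 were called higher and 5 lower (27.8% each, against 22.1% and 23.2% of all tested genes), with a median of -0.06. The D-type cyclin CCND2 fell from 91.4 ± 5.29 to 45.8 ± 3.18 CPM (SD, n = 3 each) and the CDK subunits CKS2 and CKS1B fell by 0.94 and 0.46 on the log2 scale, while CUL1, ID2 and CDK4 rose by 0.87, 0.72 and 0.45. Of 15 tested genes that MYC is known to repress, 4 were called higher (26.7%, against 22.1%) and 3 lower (20%, against 23.2%), with a median of -0.05, and 2 were higher without control replicate 1 or hyperoside replicate 1 or 3. Over all genes tested, 3549, 2700 and 2894 were higher without these libraries in turn, against 3333 with all libraries. TXNIP, which restrains glucose uptake and answers to the MondoA branch, rose by 1.99, NDRG1 by 0.76 and the CDK inhibitor CDKN1B by 0.27 on the log2 scale. DDIT3, the stress factor CHOP, fell by 1.30, GADD45A by 0.31 and CDKN1C by 0.34. The CDKN1C groups overlapped, with 21.6 to 25.1 CPM in the control group and 14.2 to 22.5 in the hyperoside group (edgeR adjusted p = 0.0471). CDKN1A, which encodes p21 and was named after its value was seen, had a log2 fold change of -0.04 and was not called.

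Among the noncoding genes of the MYC and MYCN loci, 4 of the 5 listed were in the table and 1 was tested. PVT1, the noncoding neighbor of MYC, was counted 1928, 1571 and 1339 times in control replicates 1, 2 and 3, against 2234, 2529 and 2229 times in hyperoside replicates 1, 2 and 3, without overlap. It rose by 0.48 on the log2 scale (standard error 0.11, edgeR adjusted p = 0.0018), whereas MYC beside it was not called. CASC11 had 2 to 7 counts in a library, CCAT1 had 0 to 5 and CASC8 had 0 in all libraries but hyperoside replicate 1, with 4.

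The genes with the pattern most like a network gene were sought by the root-mean-square difference of log2 CPM over the 6 libraries, each gene centered on its own mean, among 11345 genes with a mean of at least 100 counts. Nearest to MYC were CDCA4, CHID1 and CFL1, at 0.0220, 0.0279 and 0.0331 log2 units. Their control libraries varied more than their hyperoside libraries, as those of MYC did, with 412 ± 45.9 and 413 ± 24.7 CPM for the actin-severing protein gene CFL1 (SD, n = 3 each). Nearest to MXD3 were PSRC1, a spindle protein gene, DDIT3 and GOT1, a transaminase gene, at 0.0565, 0.0687 and 0.0701 log2 units, and nearest to MGA were HERC1, EPM2AIP1 and JMJD1C, at 0.0168, 0.0264 and 0.0266. With 2 groups and 3 libraries in each, this likeness mostly restates a similar difference between the groups.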

How the data were processed

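The 6 K562 RNA libraries were grouped as control and hyperoside by the sample titles, and the dose is from the study's text. The authors deposited raw counts per gene, and the submitters' processing notes name fastp, HISAT2, HTSeq and hg38. They also deposited FPKM values, made by dividing the counts by gene length and library total, and here 1 whole-number length per gene gave the values of the network genes in all 6 libraries. The annotation and the use of strand are not given in the sources used here. Other columns hold annotation terms and were not used.

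Counts were filtered (filterByExpr, minimum count 10, minimum total 15), scaled with TMM factors, and tested with edgeR 4.0.16 (quasi-likelihood) in R 4.3.3, with condition as the only term and Benjamini-Hochberg adjustment over 15095 genes. Standard errors are the change divided by the square root of F. TMM factors were 0.957 to 1.03. The study's DESeq package was not used. Replicates differed by more than counting error (chi-square per degree of freedom 6.34 to 23.1). The largest values were those of control replicate 1 against control replicates 2 and 3, at 20.3 and 23.1. Control replicates 2 and 3 had 6.34 between them, and the hyperoside pairs had 7.25 to 13.1. Alternatives used DESeq2 1.42.0, limma 3.58.1 (voom, and trend on log2(FPKM + 1) or log2(FPKM + 0.1)), other scalings and filters, the replicate number as a block, and the removal of 1 library at a time. Only the main edgeR fit was tested on simulated counts, with the same dispersion for all genes and fewer changed genes than were called here. The alternatives were not tested in this way. Plots used matplotlib 3.10.9.

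The members and the 10 lists were chosen with earlier results of these data known. Some lists share genes (SKP2, WDR5). By rule, the genes named are all members, the 3 called genes with the smallest adjusted p per list and direction, all genes of lists of 5 or fewer, and the nearest patterns of MYC, MXD3 and MGA. Named outside this rule were MLX, MLXIP, HDAC2, CDKN1A, PRPS1, PRPS2, GART, PAICS, IMPDH1, ATIC, IMPDH2 and CTPS1. The cell type markers and genes that share exon bases with a member were named as well. Some genes of the lists are not reported here. Positions are on GRCh38.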

Additional observations from a re-analysis of the deposited data

How the results depend on the processing

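MXD3, MXD4 and MGA kept their direction and their call in all 15 alternatives run for each, with log2 fold changes from -1.28 to -0.97, from -0.80 to -0.63 and from 0.22 to 0.34. MAX and MXD1 were called in 0 of 15. MXI1 lost its call with DESeq2 (log2 fold change 0.24, adjusted p = 0.0519), limma-voom (0.23), limma-trend on log2(FPKM + 1) (0.27) or log2(FPKM + 0.1) (0.28) and the replicate block (0.23), and without control replicates 2 or 3 or hyperoside replicates 1 or 3, the range with 1 library left out being 0.18 to 0.35. MNT gained a call with upper-quartile factors (0.30, adjusted p = 0.0441) and without control replicate 1, with a range of 0.14 to 0.40. The MYC log2 fold change was reversed to -0.0625 without control replicate 3, and its range with 1 library left out was -0.0625 to 0.11, not called in any. The cause of these changes was not tested.

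DESeq2, limma-voom, both FPKM fits and the replicate block left 1 network gene higher instead of 2. With 1 library left out the number was 1 to 3. Over all genes, 3318 were higher with DESeq2, 3392 with limma-voom, 3562 to 3563 in the FPKM fits and 3026 with the replicate block. The main fit called 3333 genes higher. With the fold threshold added, 0 network genes were higher and 1 lower, and over all genes 970 were higher and 567 lower. The replicate block moved no count over all genes by 1.5 times. Deviations of same-numbered libraries from their group means had correlations of -0.08 to -0.03, and those of other pairs -0.03 to 0.06. With 3 libraries per group these values cannot decide whether libraries of the same number share a culture or batch.

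For the lists, corepressor genes called lower numbered 1 with upper-quartile factors, both FPKM fits and the replicate block, 2 with the 1 CPM filter, and 1 to 4 with 1 library left out. PRC1.6 genes called higher numbered 7 with upper-quartile factors and both FPKM fits, and those lower 2 with DESeq2 and limma-voom and 1 to 2 with 1 library left out. Stability genes called higher numbered 2 with upper-quartile factors, 0 with the replicate block and 0 to 1 with 1 library left out. Nucleolar genes called higher numbered 13 in both FPKM fits and 6 to 13 with 1 library left out (13 without control replicate 1), and those lower 5 with upper-quartile factors, 4 in both FPKM fits and 4 to 9 with 1 library left out (4 without hyperoside replicate 1 or 3). With 1 library left out, metabolic genes called lower numbered 11 (without hyperoside replicate 3) to 18. MYC-repressed genes called higher then numbered 2 to 4 and MYC-branch genes higher 1 to 2. With all libraries, metabolic genes called lower numbered 12 with upper-quartile factors and the replicate block and 13 in both FPKM fits. They numbered 17 in the main fit, DESeq2 and limma-voom. Calls over all genes moved as well, from 2700 to 3549 higher and from 2858 to 3618 lower with 1 library left out. They were 3666 and 3052 with upper-quartile factors, 3562 to 3563 and 2783 to 2814 in both FPKM fits, and 3026 and 3103 with the replicate block. With DESeq2 they were 3318 and 3517, with limma-voom 3392 and 3533, and with the 1 CPM filter, which tested 12940 genes, 3282 and 3298. The main fit had 3333 and 3508. No scaling moved the median of all genes by over 0.0454.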
